A study of Homo sapiens with 4 samples.

Results

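ANGPTL4 and 8 genes of fatty acid use controlled by, or encoding, the PPAR receptors were followed across the 4 arrays of the series: ANGPTL4, PDK4, PLIN2, CPT1A, ACADVL, HADHA, PPARA, PPARD and PPARG. These 9 genes, of 18417 with a probe set of their own, were chosen by their function and by values already seen on these arrays, in which ANGPTL4 stood among the highest genes with either exposure, so their differences are a description and no test was made. All 9 had 1 probe set that names no other gene, and all 9 were among the 10373 genes kept by a filter on dim signal (at least 1 array at an intensity of 155 or more). PPARA passed through control 2 and acetaldehyde only.

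The cells were MCF12A, a line of immortalised breast epithelium that does not form tumours. Monolayers were left unexposed (control 1) or kept in 25 mM ethanol for 1 week, and in a separate experiment left unexposed (control 2) or kept in 2.5 mM acetaldehyde, the aldehyde to which ethanol is oxidised, for 1 week, with 1 Affymetrix Human Gene 1.0 ST array each. All 4 cultures grew in DMEM/F12 with 2.5% horse serum, epidermal growth factor, insulin, cholera toxin and hydrocortisone, a glucocorticoid. Ethanol was compared with control 1 and acetaldehyde with control 2. Sorted log2 intensities differed by a mean of 0.0398 within the ethanol experiment and 0.0268 within the acetaldehyde experiment, against 0.27 to 0.285 between arrays of different experiments, so each pair looks to have been normalized by itself. A level set across experiments therefore carries the experiment and its normalization, which cannot be told apart from the culture. All 10 mammary epithelial markers with their own probe set were kept, though not all were steady: keratin KRT5 lay between 9757 and 12169, while KRT14 was at 5075, 3212, 1587 and 822, the desmoglein DSG3 at 6733, 3008, 2863 and 1677, E-cadherin (CDH1) at 2572, 2062, 1025 and 768 and the laminin chain LAMB3 at 1098, 2795, 1823 and 2738 in control 1, ethanol, control 2 and acetaldehyde. EPCAM was at 859, 1396, 370 and 471 in the same order. KRT8 was at 3156, 5292, 2580 and 3001 and KRT18 at 2529, 3917, 2134 and 2319. Of the 10 epithelial markers 5 were higher and 5 lower with ethanol (57.8% of all kept genes were higher). With acetaldehyde 4 were higher and 6 lower (50.7% of all kept genes were higher). Of 10 adipocyte markers LIPE, PNPLA3 and CFD were kept while adiponectin (ADIPOQ) was at 41.8 to 78.8 and FABP4 at 13.9 to 19.1. The summed intensity of the adipocyte markers was 877, 872, 1099 and 1032 in control 1, ethanol, control 2 and acetaldehyde. The lower quartile of all probe sets was likewise higher in the acetaldehyde experiment, at 29.9, 29.7, 41.9 and 42.3.

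The PPARs are nuclear receptors that fatty acids and their derivatives activate. Each pairs with a retinoid X receptor and binds paired copies of the letters AGGTCA near its target genes. PPAR-alpha drives fatty acid oxidation in liver and muscle, PPAR-gamma drives fat storage in adipocytes, and PPAR-delta is made in most epithelia, skin and breast included. Their targets take fatty acids from delivery by lipoproteins to storage in droplets and to oxidation in mitochondria. Several of these genes have other known inducers, among them glucocorticoids (ANGPTL4, PDK4), low oxygen (ANGPTL4) and TGF-beta (ANGPTL4).

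The promoters of ANGPTL4, PDK4 and PLIN2 are shown because these 3 genes had the largest positive differences with ethanol among the 9. Each window, from RefSeq on build GRCh38.p14, runs from 250 bases before the transcription start to 50 after it, on the strand of the gene. Capitals mark TATAAA (the TATA box, searched on the strand of the gene) and, on either strand, ACGTG (the core of hypoxia response elements) and AGAACA (1 arm of the glucocorticoid response element), which appear as CACGT or TGTTCT where they lie on the opposite strand. The windows are chr19:8363905-8364204 (+) for ANGPTL4, chr7:95596467-95596766 (-) for PDK4 and chr9:19127443-19127742 (-) for PLIN2.
ANGPTL4: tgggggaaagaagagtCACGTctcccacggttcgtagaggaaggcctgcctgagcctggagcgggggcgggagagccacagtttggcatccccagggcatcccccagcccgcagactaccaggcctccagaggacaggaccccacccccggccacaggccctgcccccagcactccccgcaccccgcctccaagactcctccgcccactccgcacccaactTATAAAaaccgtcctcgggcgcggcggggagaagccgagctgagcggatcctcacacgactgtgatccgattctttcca
PDK4: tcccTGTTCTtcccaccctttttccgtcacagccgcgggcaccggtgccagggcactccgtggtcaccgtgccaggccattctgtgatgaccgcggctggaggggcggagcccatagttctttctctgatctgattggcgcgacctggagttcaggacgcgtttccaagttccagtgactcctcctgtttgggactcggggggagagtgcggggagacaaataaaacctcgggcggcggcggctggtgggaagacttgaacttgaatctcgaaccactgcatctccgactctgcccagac
PLIN2: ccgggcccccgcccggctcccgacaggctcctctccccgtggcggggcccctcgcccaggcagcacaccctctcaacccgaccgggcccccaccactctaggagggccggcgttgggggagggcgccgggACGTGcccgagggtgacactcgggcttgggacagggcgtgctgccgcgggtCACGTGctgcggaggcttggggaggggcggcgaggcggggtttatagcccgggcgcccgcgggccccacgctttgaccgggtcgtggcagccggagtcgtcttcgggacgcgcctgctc

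The ANGPTL4 window held a TATA box starting 29 bases before the start, a match found in 7.33% of all 35116 windows and in no other member, and an ACGTG core on the opposite strand at -234. ACGTG occurred in 21.4% of all windows. It lay in the windows of 4 members: ANGPTL4, ACADVL, PPARG and PLIN2, which had it at -120 and, as the palindrome CACGTG, on both strands at -69. AGAACA occurred in 14.8% of all windows and lay on the opposite strand of those of PDK4 (-246) and PPARD (-229). The single copy AGGTCA, present on either strand in 13.8% of all windows, was found in windows of PPARG alone, where 3 of its alternative starts had it. The copies at -14 and -24 of 2 overlapping windows are the same site. The 9 genes had 16 windows in all, with more than 1 for ACADVL, PPARA and PPARG. No member had 2 copies in the same direction with 1 base between, which 0.0228% of all windows had. These are matches of letters within a short window and do not locate a bound site.

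ANGPTL4, which encodes a secreted inhibitor of lipoprotein lipase (probe set 8025402), had an intensity of 438 in control 1 against 2225 with ethanol, and 633 in control 2 against 1228 with acetaldehyde. Both exposed arrays were above both controls, and the lower of them was 1.94-fold above the higher control. Against its own control ANGPTL4 was 5.08-fold higher with ethanol (log2 difference 2.35) and 1.94-fold higher with acetaldehyde (0.95). It was the 4th highest of 10373 kept genes in the first comparison and the 5th highest in the second. It also differed between the unexposed cultures, control 2 being 1.45-fold above control 1. With the arrays exchanged so that each exposure is set against the other control, ethanol was 3.51-fold and acetaldehyde 2.80-fold higher.

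Of the 9 genes, ANGPTL4 alone had exposed arrays that lay on 1 side of both controls, which was the case upward for 11.5% and downward for 8.61% of all kept genes. The distance from the higher control to the lower exposed array put ANGPTL4 2nd of 10373, behind the small Cajal body RNA SCARNA9 (2.12-fold) and ahead of INHBA, the activin A subunit (1.76-fold). SCARNA9 was at 100, 274, 103 and 219 in control 1, ethanol, control 2 and acetaldehyde. It thus passed the filter through the exposed arrays only. The ethanol value fell between the controls for 7 of the 9 genes and for 36.6% of all kept genes. The exceptions were ANGPTL4, above both controls, and ACADVL, just below control 1. The 9 were chosen with these values known, so nothing is read from this count.

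**Figure D1:**
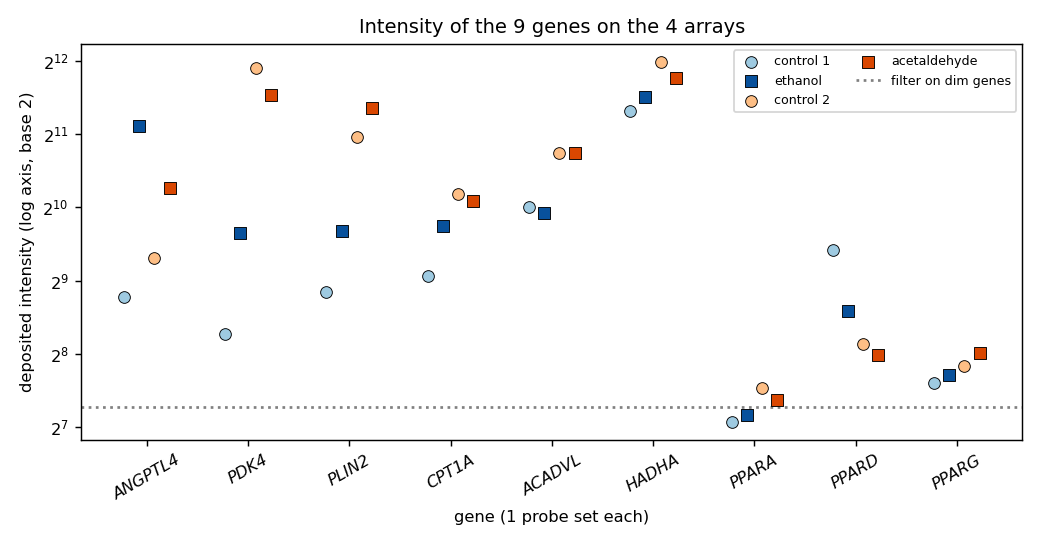
Deposited intensity (log axis, base 2) of each of the 9 genes on the 4 arrays, with circles for unexposed and squares for exposed cultures, and the dotted line at the filter intensity of 155. Only ANGPTL4 has both squares above both circles; for 7 of the other 8 genes, all but PPARD, both arrays of the acetaldehyde experiment lie above both of the ethanol experiment.

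PDK4, the kinase that shuts pyruvate dehydrogenase and so turns mitochondria from glucose to fatty acids (probe set 8141094), was at 308 in control 1 against 801 with ethanol, and 3829 in control 2 against 2969 with acetaldehyde. It was 2.60-fold higher with ethanol (1.38, the 29th highest gene) and 1.29-fold lower with acetaldehyde (-0.37). The controls lay further apart than either exposed array from its control: control 2 exceeded control 1 by 12.4-fold for PDK4, the 4th highest of all kept genes. The ethanol array thus lay between the controls, 4.78-fold below control 2.

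PLIN2, the perilipin that coats lipid droplets in most cell types (probe set 8160297), was at 460.2 in control 1 against 821 with ethanol, and 1986 in control 2 against 2622 with acetaldehyde. It was higher with both exposures, 1.78-fold with ethanol (0.84) and 1.32-fold with acetaldehyde (0.40). Between the controls it differed 4.32-fold (2.11), so that the ethanol array was below control 2 while the acetaldehyde array was the highest of the 4. PLIN2 and ANGPTL4 were, with PPARG, the 3 members that were higher with both exposures.

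The enzymes of oxidation differed less. CPT1A, the outer membrane transferase that links long fatty acids to carnitine and sets the rate of their entry into mitochondria (probe set 7949971), stood at 535 in control 1 against 861 with ethanol, and 1164 in control 2 against 1092 with acetaldehyde. It was 1.61-fold higher with ethanol (0.69), 1.07-fold lower with acetaldehyde (-0.09) and control 2 exceeded control 1 by 2.18-fold. ACADVL, the dehydrogenase of the first step for very long chains (probe set 8004271), was at 1031, 968, 1717 and 1711.5 in the same order. Its differences were -0.09 with ethanol and -0.0043 with acetaldehyde, against 0.74 between the controls. HADHA, the alpha subunit of the trifunctional protein that carries the later steps (probe set 8050908), was at 2544, 2909.7, 4062 and 3489.8. It differed by 0.19 with ethanol and -0.22 with acetaldehyde, and by 0.68 between the controls. For each of these 3 enzymes both arrays of the acetaldehyde experiment were above both arrays of the ethanol experiment.

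Of the receptors, PPARD differed most with ethanol and between the controls, and least of the 3 with acetaldehyde. PPARD (PPAR-delta, probe set 8118945) was at 687 in control 1 against 383 with ethanol, and 281 in control 2 against 253 with acetaldehyde. It was 1.79-fold lower with ethanol (-0.84) and 1.11-fold lower with acetaldehyde (-0.15), and control 2 was 2.44-fold below control 1 (-1.29). Control 1 was the high array and the ethanol array again lay between the controls. PPARA (PPAR-alpha, probe set 8073826) was at 134, 144, 184 and 165, with control 1 and ethanol below the filter intensity. Its differences were 0.10 with ethanol and -0.16 with acetaldehyde. PPARG (PPAR-gamma, probe set 8077899) was at 194, 209.8, 229 and 257, and differed by 0.12 with ethanol and 0.17 with acetaldehyde. No receptor was higher by 1.5-fold with either exposure, where 5.44% of all kept genes were with ethanol and 0.742% with acetaldehyde.

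**Figure D2:**
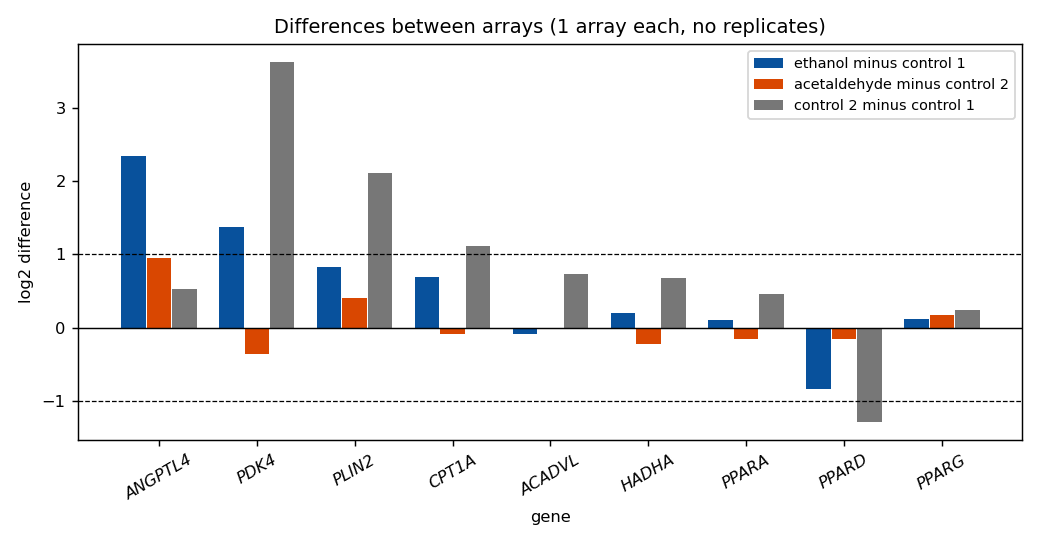
Log2 differences of the 9 genes for ethanol minus control 1 (blue), acetaldehyde minus control 2 (orange) and control 2 minus control 1 (grey), each from 1 array against 1, with dashed lines at 2-fold. The grey bar is the longest for every gene but ANGPTL4, where the ethanol bar of 2.35 exceeds the control bar of 0.53.

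Counted over the 9 genes, 2 were at least 2-fold higher with ethanol (ANGPTL4 and PDK4), where 1.17% of all kept genes were, and 0 were at least 2-fold lower, against 2.11%. At 1.5-fold, PLIN2 and CPT1A joined them, making 4 higher (5.44% of all kept genes), and PPARD was the 1 lower (4.22%). The median of the 9 was 0.19, and that of all kept genes 0.05. With acetaldehyde 0 of the 9 were 2-fold higher or lower (0.0289% and 0.212% of all kept genes), ANGPTL4 was the 1 gene past 1.5-fold upward (0.742%) and none was past it downward (0.974%). The median of the 9 was -0.09, and that of all kept genes 0.003, with 3 of the 9 higher (50.7% of all kept genes were) and 6 lower. Since the 9 were chosen with these values known, nothing is read from their counts against the background.

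Control 2 was at least 2-fold above control 1 for PDK4, PLIN2 and CPT1A (3 of 9, against 4.25% of all kept genes) and at least 2-fold below it for PPARD (1 of 9, against 4.85%). At 1.5-fold it was above for 5 (14.9%) and below for 1 (12.9%). In all, 8 of 9 were higher in control 2 (54.5% of all kept genes were), with a median of 0.68 against 0.06 over all kept genes. Quantile normalization of the 4 arrays together gave differences between the controls of 3.63 for PDK4, 2.19 for PLIN2, 1.19 for CPT1A and -1.30 for PPARD. Control 1 enters both this comparison and that of ethanol, which are therefore not independent. Of 8 fibroblast markers COL1A1 and DCN were kept, DCN through control 2 and acetaldehyde only, at 34.8, 34.6, 177 and 187 in control 1, ethanol, control 2 and acetaldehyde. The 8 summed to 603, 518, 977 and 947. Dim signal as a whole was higher in the acetaldehyde experiment: the lower quartile of all probe sets was 29.9, 29.7, 41.9 and 42.3. The sum of mostly dim markers carries that shift. The mammary epithelial markers summed to 37669, 36364, 31281 and 28785. The part of other cells in the difference between the controls was not tested.

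**Figure D3:**
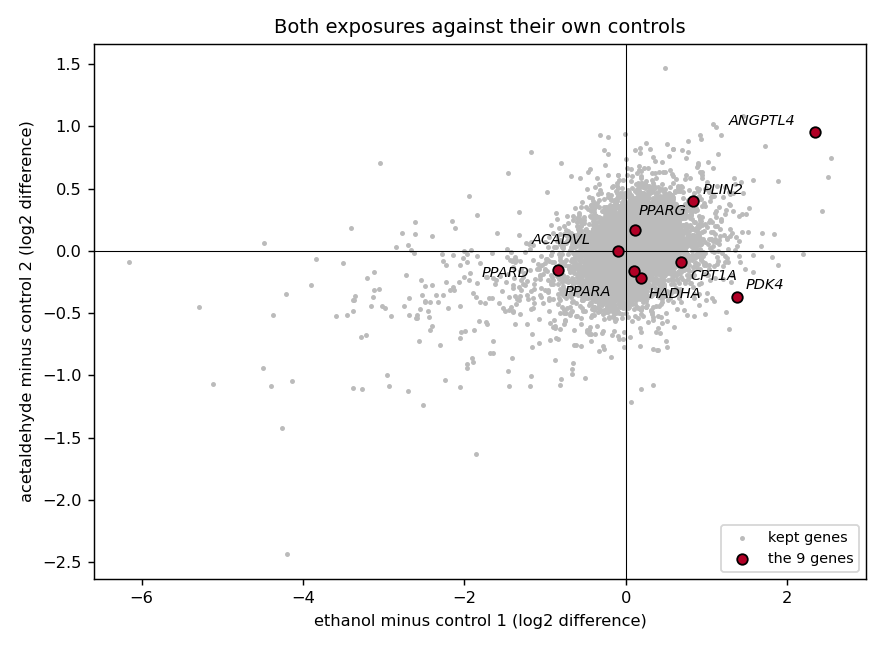
Log2 difference of each kept gene for ethanol minus control 1 (horizontal) and acetaldehyde minus control 2 (vertical), comparisons that share no array, with the 9 genes in red. ANGPTL4 lies at 2.35 and 0.95, at the upper right edge of all genes, and PDK4 at 1.38 and -0.37, below the horizontal line.

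The other genes of PPAR signalling and fatty acid use were taken from 10 lists with 147 genes, of which 125 had a probe set of their own and 84 were kept. With ethanol 2 of the 84 were at least 2-fold higher (2.38%, against 1.17% of all kept genes) and 0 were 2-fold lower (against 2.11%). With acetaldehyde 0 were 2-fold higher (against 0.0289% of all kept genes) and 1 was 2-fold lower (1.19%, against 0.212%). The medians were 0.09 with ethanol and -0.05 with acetaldehyde. Between the controls 12 of the 84 were at least 2-fold higher in control 2 (14.3%, against 4.25%) and 4 were lower (4.76%, against 4.85%).

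The receptor partners and coregulators (14 kept genes) had medians of 0.05 with ethanol and -0.07 with acetaldehyde. PPARGC1A, the coactivator PGC-1alpha that drives mitochondrial gene programmes, was at 86.1 in control 1 against 108 with ethanol, and 556 in control 2 against 264 with acetaldehyde. It was 2.11-fold lower with acetaldehyde (-1.08) while both arrays of the ethanol experiment were below the filter intensity. The acetaldehyde value lay between the controls, 1.61 (log2) above control 1. RXRA, a shared partner of the PPARs, was at -0.24 in both comparisons. The coactivator NCOA2 was at -0.49 with ethanol and -0.17 with acetaldehyde, and the estrogen-related receptor ESRRA at 0.36 and 0.01.

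Around lipoprotein lipase, the enzyme that ANGPTL4 inhibits, 0 of 7 kept genes were 2-fold apart in either comparison. Of all kept genes 1.17% were 2-fold higher and 2.11% lower with ethanol, and 0.0289% and 0.212% with acetaldehyde. Nothing is therefore read from that count of 0. The lipase itself (LPL) was dim, at 21.8 to 47.4. The largest difference among the 7 kept genes was that of PCSK6, a convertase that cleaves secreted proteins, 1.79-fold lower with ethanol (-0.84), at 143 against 257. Furin (FURIN), a convertase that cleaves ANGPTL4, was at 0.11 and 0.02, and GPIHBP1, the capillary anchor of the lipase, at -0.41 and -0.28. The lysosomal acid lipase LIPA was at 0.56 with ethanol and 0.08 with acetaldehyde. The related genes ANGPTL5, ANGPTL7 and ANGPTL8 were too dim to be kept, and ANGPTL6 differed by -0.05 and -0.15.

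Among genes of fatty acid uptake and activation (8 kept), ACSL4, the acyl-CoA synthetase that prefers arachidonic acid, was 2.06-fold higher with ethanol (1.04). It was at 306 in control 1 against 631 with ethanol, and 576 in control 2 against 586 with acetaldehyde, so that control 1 was the low array. The transporter SLC27A3 was at 0.51 with ethanol and -0.05 with acetaldehyde, the acyl-CoA synthetase ACSM3 at 0.32 and 0.18, and ACSL1, a PPAR-alpha target, at -0.20 and -0.29. CD36, the fatty acid receptor, was at 14.0 to 61.4 and was not kept.

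Of 12 kept genes of lipid droplets 6 were higher and 6 lower with ethanol (57.8% of all kept genes were higher). With ethanol 0 were 1.5-fold apart, where 5.44% of all kept genes were higher and 4.22% lower by that fold. With acetaldehyde 0 were 1.5-fold apart, against 0.742% higher and 0.974% lower. At such shares nothing is read from a count of 0 in 12 genes. ABHD5, the activator of the first lipase of stored fat, was lower with both, at -0.43 and -0.42. DGAT2, which makes triglyceride, was at -0.38 and -0.28, FITM2, which helps droplets form, at -0.35 and -0.16, and the droplet protein PLIN3 was at 0.26 and 0.08. HILPDA, an inhibitor of that lipase which PPARs and hypoxia induce, was at -0.18 and -0.01.

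The carnitine shuttle (5 kept genes) had a median of 0.26 with ethanol, with the carnitine transporter SLC22A5 at 0.50, the octanoyltransferase CROT at 0.32 and the acetyltransferase CRAT at -0.34. Mitochondrial beta-oxidation (15 kept genes) had 11 genes higher and 4 lower with ethanol (57.8% of all kept genes were higher), with a median of 0.13, and ran from the electron transfer oxidoreductase ETFDH at -0.63 to the short branched chain dehydrogenase ACADSB at 0.59. ACADSB was at 137, 206, 152 and 122 in control 1, ethanol, control 2 and acetaldehyde. It passed the filter through the ethanol array only. The medium chain dehydrogenase ACADM was at 0.34 with ethanol and 0.07 with acetaldehyde. The list's acetaldehyde median was -0.05, and 0 of the 15 genes were 1.5-fold apart with acetaldehyde. Of all kept genes 0.742% were higher and 0.974% lower by that fold. HADHB, the partner subunit of HADHA, was at 0.17 with ethanol, -0.08 with acetaldehyde and 0.81 between the controls, near the 0.19, -0.22 and 0.68 of HADHA.

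Peroxisomal oxidation (10 kept genes) had its largest differences with ethanol in PHYH and HACL1, both of which act on branched fatty acids. PHYH, which hydroxylates phytanoyl-CoA, stood at 159.9 in control 1 against 349.7 with ethanol, and 386 in control 2 against 444 with acetaldehyde. It was 2.19-fold higher with ethanol (1.13) and differed by 0.20 with acetaldehyde, and control 1 was again the low array. HACL1, the lyase of the next step, was at 0.80 with ethanol and 0.09 with acetaldehyde. The acyl-CoA oxidase ACOX3 was at -0.44 and -0.10. Of the ketone body genes OXCT1 was at 0.24 and 0.02, BDH1 at -0.34 and -0.18 and ACAT1 at -0.04 and -0.06.

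Of the other kinases of pyruvate dehydrogenase, PDK1, a hypoxia target, was at -0.43 with ethanol and 0.01 with acetaldehyde. PDK2 had the same order of arrays as PDK4 over a smaller range, at 198, 209.8, 469 and 348, with differences of 0.08, -0.43 and, between the controls, 1.24. PDPR, the regulatory subunit of the opposing phosphatase, was 1.84-fold higher with ethanol (0.88), at 1747 against 947, with 1924 in control 2 and 1752 with acetaldehyde. The 14 kept genes of a list of further PPAR targets repeat genes of the other lists except for TXNIP, a brake on glucose uptake, at -0.53 with ethanol and -0.18 with acetaldehyde. Of these 14, 8 were higher with ethanol (57.8% of all kept genes were) and 4 with acetaldehyde (50.7%), with medians of 0.02 and -0.07. In either comparison 0 were 2-fold apart. Of all kept genes 1.17% were 2-fold higher and 2.11% lower with ethanol, and 0.0289% and 0.212% with acetaldehyde.

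**Figure D4:**
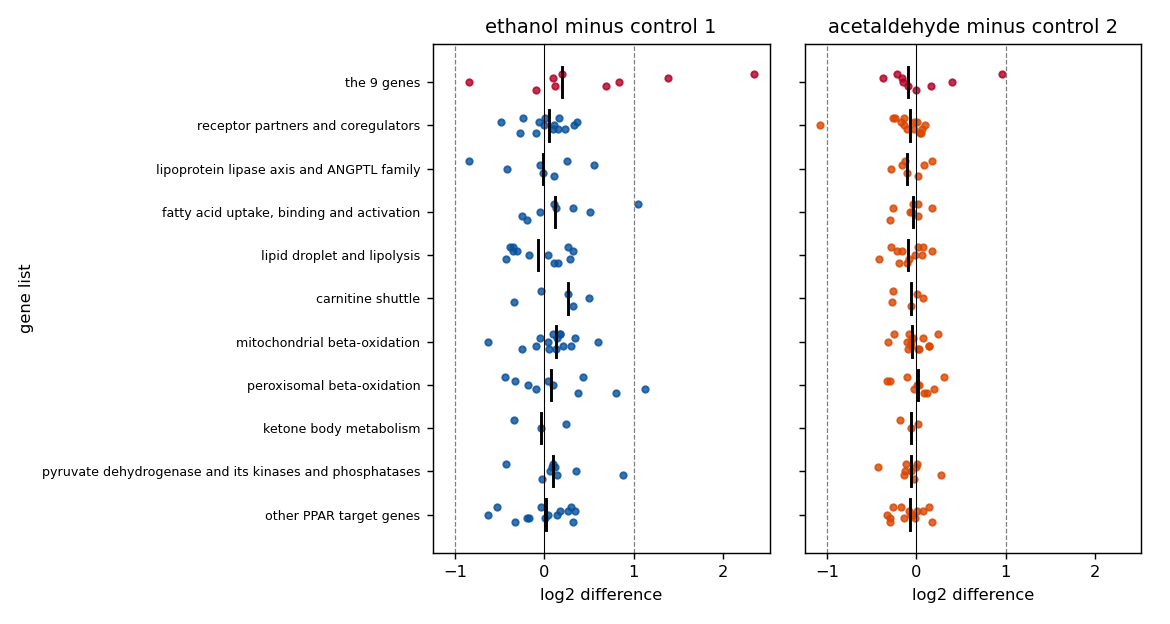
Log2 differences of the kept genes of the 9 members and the 10 lists of PPAR signalling and fatty acid use for ethanol minus control 1 (left) and acetaldehyde minus control 2 (right), 1 point a gene (the 9 in red), with the list's median as a bar and dashed lines at 2-fold. Within these 10 lists, ACSL4 and PHYH pass 2-fold with ethanol and PPARGC1A passes it downward with acetaldehyde.

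Targets of other known inducers of ANGPTL4 and PDK4 were listed beside them, and their part in the differences was not tested. Glucocorticoid targets (9 kept genes) had medians of 0.19 with ethanol, -0.21 with acetaldehyde, where 9 of 9 were lower (50.7% of all kept genes were higher), and 0.71 between the controls. Among them ZBTB16 was at 178 in control 1 against 303 with ethanol, and 776 in control 2 against 678 with acetaldehyde, in the same order of arrays as PDK4. TSC22D3 (GILZ) was 2.10-fold higher with ethanol (1.07), at 1615 against 767, and at -0.38 with acetaldehyde. Control 2, at 1407, was 1.83-fold above control 1 for TSC22D3. The kinase SGK1 was 2.16-fold lower with acetaldehyde (-1.11) and at 0.19 with ethanol. Hypoxia targets (12 kept genes) had medians of -0.11 with ethanol and 0.13 with acetaldehyde, with EGLN3 at -1.28 and CA12 at 0.73 with ethanol and VEGFA at -0.54 and 0.40. TGF-beta targets (8 kept genes) had medians of 0.51 and 0.01, with CCN2 at 1.48 and -0.14, TGFB1 at 0.59 and -0.14 and BHLHE40 at -0.78 and -0.45. Between the controls (control 2 minus control 1) CCN2 differed by 1.48, TGFB1 by 1.40 and BHLHE40 by -0.63. Of the hypoxia targets, EGLN3 differed there by -0.91, CA12 by 0.23 and VEGFA by -1.47.

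The pattern of ANGPTL4 was set against every other kept gene by the root mean square distance between their log2 values on the 4 arrays, each gene centred on its own mean. The nearest was TLR2, a receptor of bacterial lipoproteins, at a distance of 0.25, followed by SCARNA9 (0.32), the adhesion molecule NRCAM (0.35), the protease inhibitor SERPINA1 (0.36) and TTC14 (0.37). TLR2 was at 119, 643, 251 and 313 in control 1, ethanol, control 2 and acetaldehyde. SERPINA1 was at 298, 1371, 504 and 496, and so lacked the difference with acetaldehyde. TTC14, at 105, 286, 121 and 167, and SCARNA9 passed the filter through the exposed arrays only. None of the 5 is in the lists above. The nearest of the other 8 members was CPT1A, at 0.83, which ranked 2066th of all kept genes, and PDK4 (1.57) was the farthest. With 4 arrays such likeness is a description of these cultures.

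**Figure D5:**
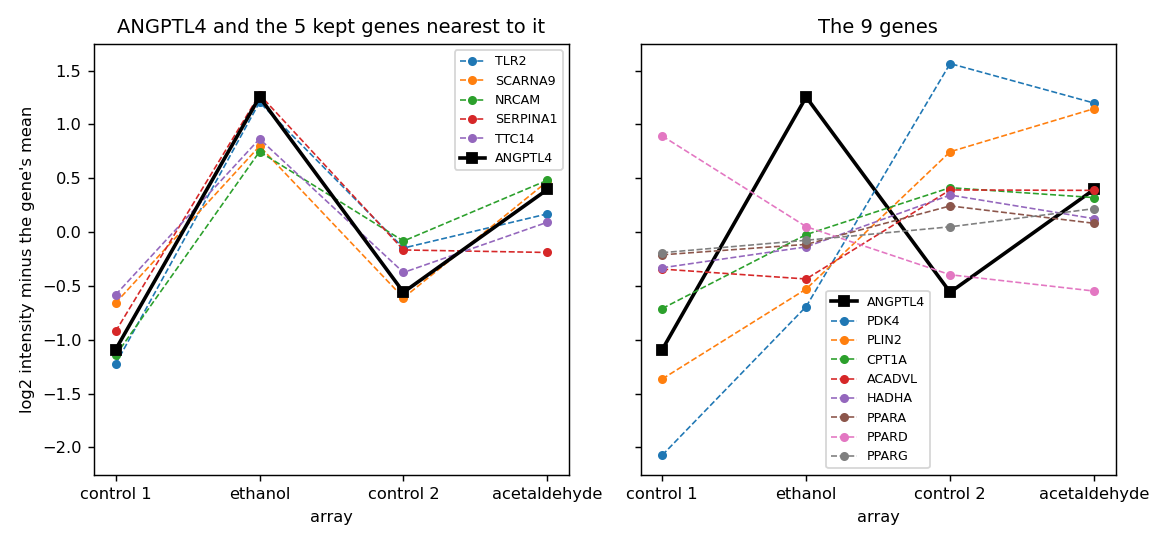
Log2 intensity minus the gene's mean over the 4 arrays, with lines joining the values of 1 gene; left, ANGPTL4 (black) and the 5 kept genes nearest to it, right, the 9 genes. ANGPTL4 peaks with ethanol and again lies above its control with acetaldehyde, while PDK4 and PLIN2 are low in the ethanol experiment and high in the acetaldehyde experiment.

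With 1 array a group none of these differences has a replicate, and precision is limited by that number. In RNA of whole cultures, fewer cells making a transcript and less of it per cell cannot be told apart.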

How the data were processed

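RNA of 4 MCF12A cultures was read on 4 Affymetrix Human Gene 1.0 ST arrays, and groups and the control of each exposure were taken from the labels. Each probe set has 1 linear intensity for every array in the table deposited by the authors. Per the submitters' processing notes the values were made with RMA; which program ran it is not given in the sources here. A log2 table had been planned for, so log2 was taken here, with no offset. Of 33297 probe sets the platform annotation gave 1 gene for 19460, several for 1754 and none for 12083. The probe set with the highest mean stood for each gene, and genes whose highest value reached the median of gene-naming values (log2 7.28) were kept. All 9 members matched the RefSeq gene table. The members and lists were chosen with earlier results of these data known.

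No test was run, since each group has 1 array; genes at least 2-fold or 1.5-fold apart were counted. Named list genes are the 3 with the largest matched difference in each list and any past 2-fold; KRT5, LPL, CD36, FURIN, RXRA, ACSL1, PLIN3, HILPDA, HADHB, INHBA, the marker genes and the other genes of the ANGPTL family were added after their values were seen. Alternatives covered joint quantile normalization, centring, probe sets, offset, filter, threshold and controls. Functions were tested on simulated data. Python 3.11.15, numpy 2.4.6, pandas 2.3.3 and matplotlib 3.10.9 were used.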

Additional observations from a re-analysis of the deposited data

Results flagged for a closer look

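For 13 of the listed or named genes, the 2 exposures lay on opposite sides of their own controls, with at least 1 difference past 1.5-fold. Of the 9 members these were PDK4, whose ethanol difference exceeded the acetaldehyde difference by 1.75 (log2), and CPT1A, by 0.78. In the lists of PPAR signalling and fatty acid use the gap was 1.41 for PPARGC1A, 1.02 for PDPR and 0.91 for ACADSB. ACADSB passed the filter through the ethanol array only. Among glucocorticoid targets it was 1.45 for TSC22D3, 1.30 for SGK1 and 0.96 for ZBTB16, among TGF-beta targets 1.62 for CCN2 and 0.72 for TGFB1, and it was 0.88 for the hypoxia target CA12. It was 1.21 for the immune marker CD14 and 2.22 for SERPINA1, where the acetaldehyde difference was -0.02. With 1 array a group this difference between the exposures was not tested. How many of all kept genes meet the same rule was not counted, so nothing is read from the number of 13. The controls differed by more than the gap for 6 of the 13: PDK4, CPT1A, PPARGC1A, PDPR, ZBTB16 and TGFB1.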

How the results depend on the processing

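The differences moved with the choice of control far more than with the other settings. A difference was taken to have moved when it shifted by more than 0.36 log2. That is the median absolute deviation of the control difference over all kept genes, scaled to 1 SD and divided by the square root of 2. A count or share was taken to have moved when it changed by more than 1.5-fold, or to or from 0. Against the control of the other experiment ANGPTL4 stood at 1.81 with ethanol and 1.49 with acetaldehyde. Of differences past 2-fold as reported, PDK4 with ethanol reversed to -2.26, PHYH to -0.14 and CCN2 to -0.0032, and PPARGC1A with acetaldehyde to 1.61; against the mean of both controls PDK4 reversed to -0.44 and PPARGC1A to 0.27. Of ethanol differences between 1.5-fold and 2-fold, the sign also turned against the other control for PLIN2 (-1.27), CPT1A (-0.44), PPARD (0.45), ETFDH (0.27), PDPR (-0.14), ZBTB16 (-1.36) and TGFB1 (-0.81), and against the mean of both for PLIN2 (-0.22), ZBTB16 (-0.30) and TGFB1 (-0.11). PDK4 with acetaldehyde, at -0.37 as reported, stood at 3.27 against control 1. Of the 9 genes, those at least 2-fold higher with ethanol numbered 2 as reported, 1 against the other control, 1 against the mean of both and 4 at 1.5-fold, and those lower 0, 2 against the other control and 1 at 1.5-fold. With acetaldehyde the higher ones numbered 0 as reported, 4, 3 and 1 in the same order, and the lower ones 0 and 1 against the other control. At 1.5-fold control 2 was above control 1 for 5 genes instead of 3. Joint quantile normalization left 164 of 165 values within these bounds and centring all 165. The mean of all probe sets left 164, SCARNA9 with ethanol moving to 1.06, an offset of 50 left 157 and dropping the filter 163. The share of all genes at least 2-fold higher with acetaldehyde was 0.0289% as reported, 0.0584% after joint quantile normalization and 0.0814% with no filter. With the offset it was 0% upward and 0.0868% downward, against 0.212%; the share higher with ethanol was then 0.675% (1.17% as reported) and that higher in control 2 was 2.71% (4.25%). With no filter 2.98% of genes were lower in control 2 (4.85%). The cause of these shifts was not tested. Signal near background limits PPARA on the arrays of the ethanol experiment, and ACADSB on every array but that of ethanol. Among other named genes below the filter intensity were GPIHBP1 on every array but control 2, and PPARGC1A and ACSM3 in the ethanol experiment. So were PCSK6 with ethanol, SGK1 with acetaldehyde, SCARNA9 and TTC14 in both controls, and TLR2 and NRCAM in control 1. No paired analysis was possible because each group has 1 array.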
